A study of Homo sapiens with 18 samples.

Results

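The genes described here build the small subunit of the ribosome. They are 49 protein-coding genes picked by function: parts of the small-subunit processome, the particle that forms on the nascent ribosomal RNA precursor in the nucleolus, and factors that act later on the nearly finished small subunit. They were followed through 3 lists of MAX binding sites and set against all 19974 protein-coding genes on chromosomes 1 to 22 and X. A gene was given every peak whose summit lay inside it or within 2500 bp of either outer end, and its strongest peak stands for it below.

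MAX is the obligate DNA-binding partner of MYC, and the MYC-MAX dimer prefers the E-box CACGTG. Ribosome assembly is among the best known programmes of MYC target genes. In the processome, the UtpA and UtpB complexes and the U3 small nucleolar ribonucleoprotein (snoRNP) assemble on the leading spacer of the precursor, further factors fold and cut it, and a late set escorts the particle to the cytoplasm and completes the small-subunit RNA.

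The series profiled MAX by ChIP-Rx, chromatin immunoprecipitation with sequencing in which chromatin of another species is added as a reference. The cells were U2OS, a human osteosarcoma line, with MYC knocked out and a Tet-On MYC transgene that was wild type (WT) or one of the mutants that the labels call 3A and 7A, whose changed residues the labels do not give. Each form was induced with 1 µg/ml doxycycline over 24 h or kept in PBS, and 10% mouse NIH3T3 cells were added to each sample, which makes 6 groups with 2 immunoprecipitated libraries each, 12 in all, besides 6 inputs. All groups therefore share the MYC knockout, and how many clones stand behind each line is not given in the labels. The antibody field of the labels names MAX, whereas their protocol text describes an antibody against FLAG. The files analysed are 1 peak list per MYC form, with 34622 peaks for WT, 27294 for 3A and 25159 for 7A. Neither doxycycline nor replicates can be separated in them, so that no value below has a replicate check and no difference between MYC forms was tested. Library depth is not given in the lists, and peak lists offer no expression markers by which to check the cell line.

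A peak's strength is the authors' fold enrichment at its summit, a linear ratio on the scale of its own list. Its rank percent is its place when the list is sorted by fold enrichment, as a percent of the list, so that a low value means a strong peak. Because the lists differ in length and background, a shift in rank between lists is a difference in place and shows no gain or loss of binding.

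The promoters of the 6 E-box genes with the highest WT fold enrichment are shown first, because the motif and the MAX summit fall at nearly the same base in several of them. Each stretch runs from 90 bases before the RefSeq transcription start to base 25 of the transcript, on the gene's own strand (GRCh38.p14), with CACGTG in capitals. NOP14 is read from chr4:2963382-2963496 on the minus strand, PNO1 from chr2:68157798-68157912 on the plus strand, ESF1 from chr20:13784895-13785009 on the minus strand, RCL1 from chr9:4792854-4792968 on the plus strand, NAT10 from chr11:34105539-34105653 on the plus strand and UTP18 from chr17:51260456-51260570 on the plus strand.
NOP14: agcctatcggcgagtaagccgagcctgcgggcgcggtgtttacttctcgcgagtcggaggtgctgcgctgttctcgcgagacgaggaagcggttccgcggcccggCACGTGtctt
PNO1: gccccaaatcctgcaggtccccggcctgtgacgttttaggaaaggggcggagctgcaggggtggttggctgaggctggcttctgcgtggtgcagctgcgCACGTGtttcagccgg
ESF1: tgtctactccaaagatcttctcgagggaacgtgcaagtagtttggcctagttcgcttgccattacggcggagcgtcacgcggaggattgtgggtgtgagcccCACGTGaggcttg
RCL1: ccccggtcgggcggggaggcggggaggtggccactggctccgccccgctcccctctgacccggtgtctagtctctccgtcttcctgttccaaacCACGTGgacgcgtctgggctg
NAT10: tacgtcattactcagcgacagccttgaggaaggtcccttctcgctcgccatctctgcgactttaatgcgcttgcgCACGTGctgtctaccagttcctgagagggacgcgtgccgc
UTP18: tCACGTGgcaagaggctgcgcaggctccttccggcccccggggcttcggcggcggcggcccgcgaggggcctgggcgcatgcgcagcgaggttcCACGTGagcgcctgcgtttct
The E-box begins at base 16 of the NOP14 transcript, base 10 of PNO1, base 13 of ESF1 and base 5 of RCL1. In NAT10 it begins at -15 from the start. UTP18 carries a copy at -89 and another at base 5. The WT summit lay 3.5 bp from the centre of the motif in NOP14, 1.5 bp in PNO1 and 2.5 bp in ESF1. It lay 24.5 bp away in NAT10 and 23.5 bp from the nearer copy in UTP18. The RCL1 summit, at 79 bases past the start in WT, fell outside the promoter window. NOP14 and PNO1 share their peaks with the ends of GRK4 and DNAAF10, ESF1 with NDUFAF5, and UTP18 with MBTD1.

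MAX peaks were found at nearly all of the small-subunit assembly genes in the list of each MYC form, which merges cells with and without doxycycline. In every list 46 of the 49 had a peak, against a background of 70.8% of protein-coding genes in the WT list, 67.7% in 3A and 66.7% in 7A. They were the same 46 genes, where 65.7% of all protein-coding genes had a peak in all 3 lists. The peaks were mostly at the same places. The strongest WT peak was overlapped by a 3A peak at 46 of 46 genes (background 91.2%) and by a 7A peak at 46 of 46 (background 89.6%). The 3 summits lay within 50 bp of each other at 37 of the 46, or 80.4%, against 59.3% of the 13113 protein-coding genes with a peak in all lists. Most genes had a single peak: 38 in WT, 40 in 3A and 39 in 7A. Of the 39 genes with a peak and a start in the RefSeq promoter table, 33 had the WT summit within 250 bp of that start, as had 36 in 3A and 34 in 7A. No share of all genes is given for single peaks or for this distance. Neither count therefore sets these genes apart.

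These peaks stood high in the lists. In WT 32 of the 49 genes had a peak in the strongest 10% of the list (background 16.4%), in 3A 31 (13.5%) and in 7A 20 (12%). In all 3 lists at once it was 19 (6.85%): BYSL, ESF1, FBL, IMP4, LTV1, NOL10, NOL6, NOP14, NOP56, PNO1, RCL1, RIOK1, RIOK2, RRP12, RRP9, UTP11, UTP18, WDR36 and WDR43. The median fold enrichment of the 46 was 38.5 in the WT list, 27.4 in 3A and 24.0 in 7A, beside 17.7, 15.5 and 14.99 over all protein-coding genes with a peak. Their median rank percent was 5.88 in the WT list, 8.91 in 3A and 12.4 in 7A, beside 25.3, 28.98 and 31.5 over all genes. When ranks were taken only among the 13113 genes present in all lists, so that lists no longer differ in length, the medians were 15.4, 18.4 and 22.8. The genes stood lowest in the 7A list by each of these measures.

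**Figure D1:**
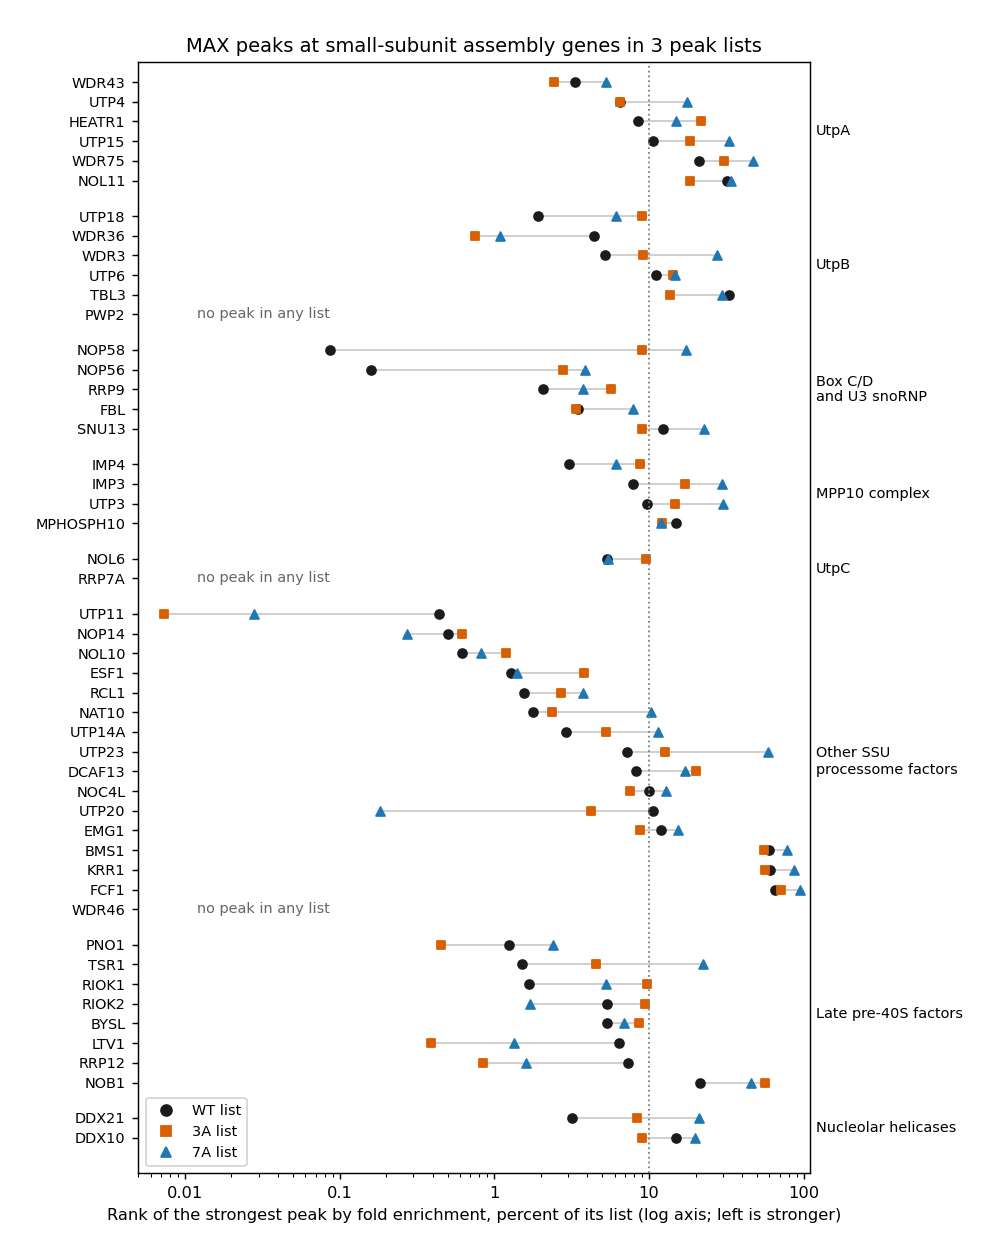
Rank percent of the strongest MAX peak of each small-subunit assembly gene with a peak, in the WT, 3A and 7A lists, grouped by role; the axis is logarithmic and low values are strong peaks, 1 point per gene and list. Most genes sit below 10% in WT (32 genes) and in 3A (31), fewer in 7A (20), and NOP58, UTP11 and UTP20 are spread most widely between lists.

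The U3 snoRNP had the lowest median rank percent of any role group in WT, and 2 of its genes led those that ranked higher in WT than in the mutant lists. Its 5 genes had a median rank percent of 2.05 in the WT list, 5.70 in 3A and 7.89 in 7A. NOP58 and NOP56, which form the scaffold of box C/D snoRNPs, led the group. The NOP58 peak (hg38, chromosome 2, 202265497 to 202266424) had a fold enrichment of 133.9 in the WT list, 27.3 in 3A and 20.6 in 7A. It was peak 30 of the WT list, the highest of the 49 genes there, 2462 of 3A and 4331 of 7A. The summit also lay elsewhere: the WT summit was at 202266155, inside the gene, while the 3A summit at 202265779 and the 7A summit at 202265750 lay near its outer end at 202265763. NOP56 (chromosome 20, 2651637 to 2653566) stood at 121.6 in WT, 42.9 in 3A and 39.4 in 7A, which was place 55, 762 and 966. Its summits were at 379 bp past the start in the WT list, -759 in 3A and 382 in 7A, each within the span of 1 broad WT peak. By −log10 q in place of fold enrichment the NOP58 rank ratio was 4.89 for 3A over WT and 9.72 for 7A over WT, against 104.1 and 198.7 by fold enrichment. For NOP56 it was 3.08 and 4.21, against 17.6 and 24.2. Both genes thus stood higher in WT by either measure, by amounts that depended on it.

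RRP9, the protein that marks U3 among box C/D snoRNPs, had 58.5 in WT, 32.8 in 3A and 39.7 in 7A. FBL, the ribose methyltransferase fibrillarin, had 47.6, 40.1 and 29.3. SNU13, which binds the kink-turn of these RNAs, had the lowest values of the group at 27.0, 27.2 and 18.0. NOP56 and NOP58 also carry snoRNA genes within their own span, 5 and 4 of them. Of the 49 genes 7 held a snoRNA gene, where 2.63% of all protein-coding genes did, and the other five are WDR43, TSR1, NOL11, UTP20 and BMS1.

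The UtpA complex, which binds the precursor first, ranked lower than the snoRNP genes. Its 6 genes had a median rank percent of 9.50 in the WT list, 18.4 in 3A and 25.3 in 7A. WDR43 was the strongest, at 48.6 in the WT list, 44.8 in 3A and 34.7 in 7A. Its summit lay at different points of 1 wide peak, from 757 bp past the start in WT to -5 in 3A and 8 in 7A. UTP4 had 37.0, 31.2 and 20.4, and its peak is shared with CHTF8 and DERPC. HEATR1, the large helical-repeat protein of the complex, had 32.5, 18.0 and 22.1. The others, UTP15, WDR75 and NOL11, lay between 15.1 and 29.2 in WT.

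In UtpB, the scaffold next to U3, UTP18 was the strongest gene in WT and WDR36 in both mutant lists. UTP18 had 60.2 in WT, 27.2 in 3A and 32.8 in 7A. WDR36 ran the other way, at 43.6 in WT, 66.1 in 3A and 64.1 in 7A, with summits within 16 bp of each other. WDR3 had 40.4, 27.2 and 16.2. The peak that stands for UTP6 lay some distance from its start, at 42438 bp in WT, beside COPRS. The UTP6 start itself had weaker peaks of 16.1, 13.4 and 11.4. TBL3 had 14.8 and 15.5 in WT and 7A from a peak at the other end of the gene beside GFER, and 22.7 in 3A from a peak at its start. At the TBL3 start the values were 14.1, 22.7 and 10.9.

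The MPP10 complex, which joins U3 to the precursor, and UtpC followed. IMP4 had 50.6 in WT, 27.6 in 3A and 32.8 in 7A, IMP3 33.8, 20.4 and 15.5, and UTP3 30.5, 21.9 and 15.4. Each of these was highest in WT. MPHOSPH10, the namesake of the complex, was nearly level at 24.3, 23.9 and 24.4. NOL6, the UtpC gene with a peak, had 39.98 in WT, 26.6 in 3A and 34.3 in 7A.

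Among the other processome factors UTP11 stood apart in the mutant lists. The UTP11 peak (chromosome 1, 38012219 to 38013327 in WT) had a fold enrichment of 94.4 in the WT list, 269.9 in 3A and 186.1 in 7A. It was place 151 of the WT list, 2 of the 3A list and 7 of the 7A list, the highest of the 49 genes in both mutant lists. Its summits agreed to within 5 bp, at -242, -240 and -237 from the start. The UTP11 promoter window holds no CACGTG. The variant CACGCG, in capitals here, begins at -236, and the stretch shown is chr1:38012484-38012563, plus strand, from the first base of the window on. It was added because of the gene's place in the lists.
UTP11: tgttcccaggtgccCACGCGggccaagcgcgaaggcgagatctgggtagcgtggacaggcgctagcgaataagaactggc

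UTP20, a very large helical-repeat protein, ranked far higher in the 7A list, with 29.2 in the WT list, 36.7 in 3A and 110.3 in 7A. Its place went from 3673 in WT to 1155 in 3A and 46 in 7A, with summits within 2 bp of each other. NOP14 had 90.7, 72.3 and 91.0 and NOL10 86.4, 56.4 and 68.8, and both stood in the strongest 2% of every list. RCL1, a partner of the GTPase BMS1, had 64.8, 43.6 and 39.8, and ESF1 69.1, 38.4 and 58.0. NAT10, the acetyltransferase of small-subunit rRNA, had 61.7, 45.1 and 26.04. UTP23, a PIN-domain protein, was weakest in the 7A list, at 35.3, 23.5 and 9.74. At the low end in WT were FCF1, another PIN-domain protein, with 8.37, 8.12 and 5.00, KRR1 with 8.94, 10.1 and 6.33, and BMS1 with 9.09, 10.2 and 7.25. FCF1, KRR1 and BMS1 lay below the median peak of every list, which was 10.7 in the WT list, 11.0 in 3A and 11.1 in 7A.

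The factors that act late on the small subunit had a median rank percent of 5.34 in the WT list, 6.57 in 3A and 3.82 in 7A, and moved in both directions between lists. PNO1, the partner of the endonuclease NOB1, had 70.2 in WT, 79.4 in 3A and 47.2 in 7A. TSR1, a GTPase-like factor, stood lower in each mutant list, at 65.6, 35.9 and 18.1. RIOK1, an atypical kinase, had 62.5, 26.4 and 34.8, where the 7A value comes from a second peak 25153 bp past the start. At the RIOK1 start the 7A value was 32.9. LTV1, which is released from the particle in the cytoplasm, had 37.1, 81.9 and 59.6, and its summits lay within 2 bp. RRP12, an export factor, had 34.9, 63.8 and 54.7. RIOK2, another atypical kinase, had 39.99, 26.7 and 53.4. LTV1 and RRP12 thus stood higher in both mutant lists, and RIOK2 in 7A. NOB1 itself, which makes the final cut of the small-subunit RNA, was the weakest of the group with 19.8, 10.1 and 11.8. The helicase DDX21 had 49.9, 28.2 and 18.7, and DDX10 24.3, 27.2 and 19.3.

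Ranks were then compared list by list, counting genes whose rank percent differed at least 2-fold. The comparisons draw on the same lists, so they are not independent. From WT to 3A, 13 of the 46 genes ranked at least 2-fold higher in WT, or 28.3%, beside 23.4% of all protein-coding genes with a peak in both, a share near the background. The largest ratios were those of NOP58 (104.1), NOP56 (17.6), RIOK1 (5.81), UTP18 (4.74) and TSR1 (3.02). In the other direction 7 genes ranked higher in 3A (background 12.2%), led by UTP11 (59.5), LTV1 (16.3), RRP12 (8.66), WDR36 (5.83) and PNO1 (2.74). PNO1 changed sides when peaks were ranked by −log10 q, with a ratio of 2.16 in favour of WT. Ranked among the genes common to all lists, 8 stood higher in WT (17.4%, background 13.1%) and 7 in 3A (15.2%, background 12.6%). The nearest genes on either side of the limit were IMP3 at 2.16 and NOL10 at 1.94 for WT, and TBL3 at 2.42 and NOL11 at 1.74 for 3A.

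From WT to 7A the counts were 20 genes higher in WT, or 43.5% (background 26.5%), and 6 higher in 7A (background 10.8%). NOP58 (198.7), NOP56 (24.2), TSR1 (14.9), UTP23 (8.17) and DDX21 (6.66) led on the WT side, and UTP20 (58.0), UTP11 (15.7), LTV1 (4.81), RRP12 (4.54) and WDR36 (4.03) on the 7A side. Ranked among the genes common to all lists, 13 stood higher in WT, or 28.3%, where 13.1% of all genes did. A gene high in the WT list has more room to rank lower elsewhere, and so strong genes were also counted alone. Of the 32 genes in the strongest 10% of the WT list, 17 ranked at least 2-fold higher in WT than in 7A, or 53.1%, where 57.1% of all protein-coding genes in that part of the list did. For 3A it was 12 of 32, or 37.5%, where the background was 51.3%. Neither share of the strong genes was above its background. Genes and background were here both selected on their WT rank, so that these shares describe that subset and support nothing about the 46. The 43.5% of the 46 and its background of 26.5% were in turn not matched for WT rank. Just inside and outside the limit were IMP4 at 2.01 and PNO1 at 1.94 for WT, and RIOK2 at 3.11 and NOP14 at 1.84 for 7A.

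Between the mutants, 16 genes ranked at least 2-fold higher in 3A than in 7A (34.8%, background 17.2%) and 4 higher in 7A: ESF1, NOP14, RIOK2 and UTP20 (background 12.1%). That count for 3A was 3 when peaks were ranked by −log10 q, where the background was 5.16%. NOP14 changed sides under that ranking, with a ratio of 1.12 in favour of 3A. The limit passed between UTP3 at 2.05 and NOP58 at 1.91 for 3A, and between NOP14 at 2.26 and RIOK1 at 1.85 for 7A. The calls that also stood under each of 4 other rankings (by −log10 q, among common genes, with lists of equal length, and by the peak nearest the start) were few for some pairs. They were IMP4, NOP56, NOP58, RIOK1 and RRP9 for WT over 3A, and LTV1, UTP11, UTP20 and WDR36 for 3A over WT. For WT over 7A they were 12 genes, DDX21, IMP3, NAT10, NOP56, NOP58, RIOK1, TSR1, UTP14A, UTP15, UTP23, UTP3 and WDR3, and for 7A over WT RIOK2, UTP11, UTP20 and WDR36. DDX21 alone stood for 3A over 7A, and RIOK2 and UTP20 for 7A over 3A.

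**Figure D2:**
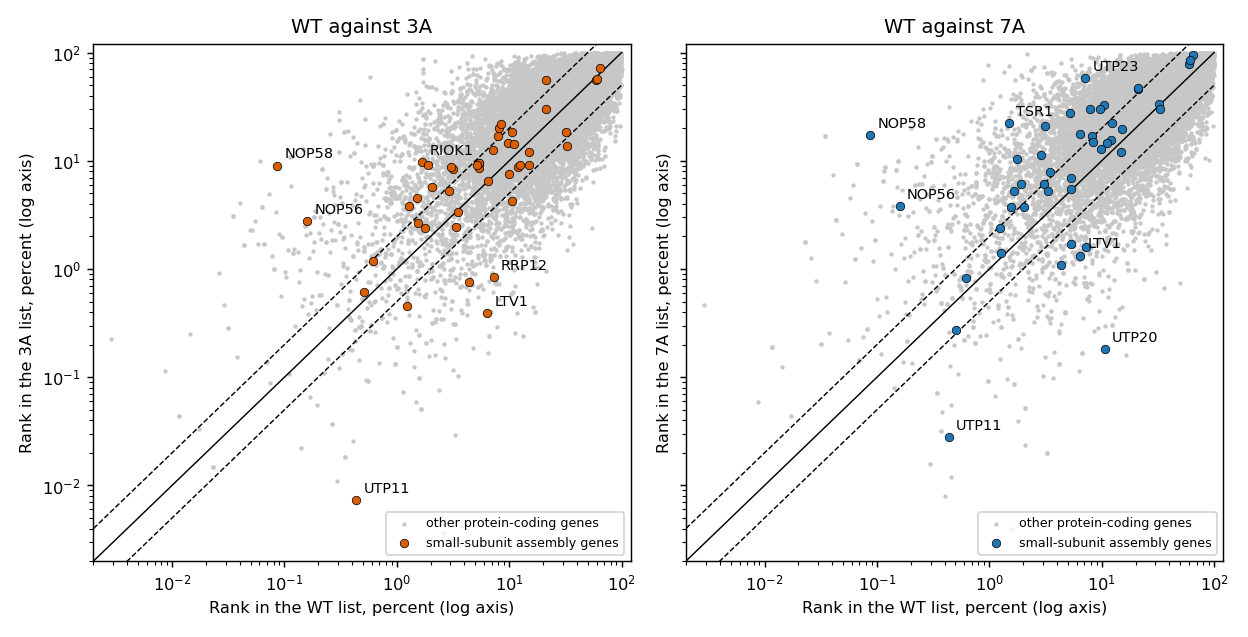
Rank percent of each small-subunit assembly gene in the WT list against its rank percent in the 3A list (left) and the 7A list (right), both axes logarithmic, with lines at equal rank and at a 2-fold ratio. Points above the diagonal rank higher in WT: NOP58 and NOP56 lie farthest above it in both panels, and UTP11 (3A) and UTP20 (7A) farthest below.

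E-boxes were frequent in these promoters. The RefSeq table gives 250 bases before and 50 after the start for 42 of the 49 genes, and NOL10, DCAF13, RRP12, UTP23, MPHOSPH10, NOP58 and SNU13 are not in it. CACGTG, which reads the same on both strands, stood in 19 of the 42 windows, or 45.2%, where 10.9% of 15813 protein-coding genes had it. CACGCG on either strand, which cannot overlap a CACGTG, stood in 12, or 28.6% (18.1%). Either motif stood in 25, or 59.5% (26.2%). Of the other small-subunit assembly genes 7 of 21 had CACGTG (33.3%), and of the large-subunit assembly genes 13 of 40 (32.5%). Of the small-subunit ribosomal protein genes 2 of 25 had it (8%). For CACGCG the shares in the same order were 33.3%, 25% and 16%, and for either motif 61.9%, 52.5% and 20%. The other small-subunit assembly genes thus had larger shares of CACGCG and of either motif than the genes described here. The motif sat close to the start: in 12 of the 19 genes it began in the first 30 bases of the gene, where the background among genes with CACGTG was 9.63%. Some large-subunit assembly genes also had CACGTG there, among them GNL2, GNL3, NLE1 and PES1. No share was counted for the comparison lists, so this position is not shown to be particular to the small-subunit assembly genes.

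**Figure D3:**
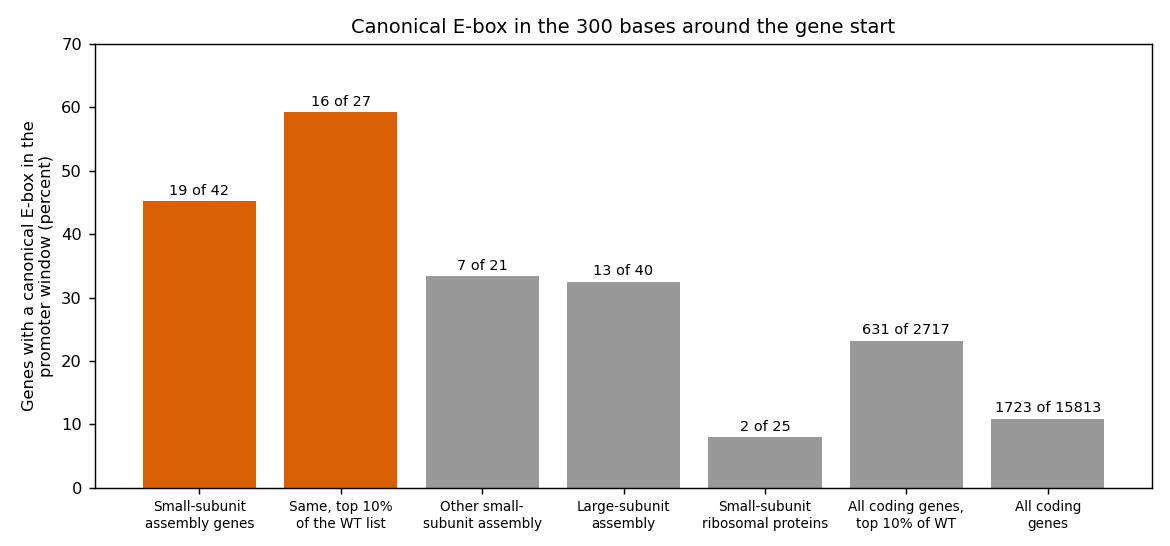
Share of genes with CACGTG in the RefSeq promoter window for the small-subunit assembly genes, the comparison lists and all protein-coding genes, as bars from 0 in percent. The small-subunit assembly genes reach 45.2%, the background is 10.9%, and small-subunit ribosomal protein genes stand at 8%. Bars for genes in the strongest 10% of the WT list reach 59.3% for the small-subunit assembly genes and 23.2% for all.

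Genes with the motif ranked higher than those without it. In WT the 17 genes with CACGTG and a peak had a median rank percent of 3.04, and the 22 without it 10.2. In 3A the medians were 4.23 and 13.9, and in 7A 5.43 and 24.9. Over all protein-coding genes the same medians were 12.2 and 26.9 in WT, 15.5 and 30.3 in 3A, and 15.9 and 33.8 in 7A. The motif therefore went with rank in every list, among these genes as among all. Of the 27 genes of the strongest 10% in WT with a window, 16 had CACGTG, or 59.3%, where 23.2% of all protein-coding genes of that standing did. Of the 15 others 3 had it: UTP20, and PWP2 and WDR46, which have no peak. Of all genes with no WT peak 6.74% had the motif.

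At most of these genes motif and summit nearly coincided. Of the 17 genes with CACGTG and a peak, 10 had a summit within 10 bp of the motif's centre in each list, or 58.8%, where the background was 29.7% in the WT list, 24.2% in 3A and 24.6% in 7A. UTP4, RCL1 and DDX21 had no summit in the window that holds their motif in any list, nor had WDR43 in WT, whose summit there was 757 bp past the start. The 13 genes with both in the window in WT had a median distance of 4.5 bp (background within 10 bp 45.8%). In 3A it was 8 bp over 14 genes (background 36.8%), and in 7A 6.5 bp over 14 genes (background 36.1%). These medians leave out the distant summits, as do those over all genes, which were 12.5, 17.5 and 16.5 bp. RRP9, NOP14 and NOL6 had the WT summit 3.5 bp from the motif, LTV1 and UTP14A 4.5 bp, IMP4 5.5 bp and FBL 8.5 bp. Within the windows the distance was largest at UTP20, with 53.5 bp in WT, 55.5 bp in 3A and 54.5 bp in 7A. It also passed 10 bp at NAT10 in every list, at UTP18 in WT, at ESF1 and WDR43 in 3A, and at PNO1 and RRP9 in 7A. The genes that ranked lower in the mutant lists and those that ranked higher both include genes with the motif (IMP4 and UTP18, LTV1 and UTP20) and without it (NOP56, WDR36).

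**Figure D4:**
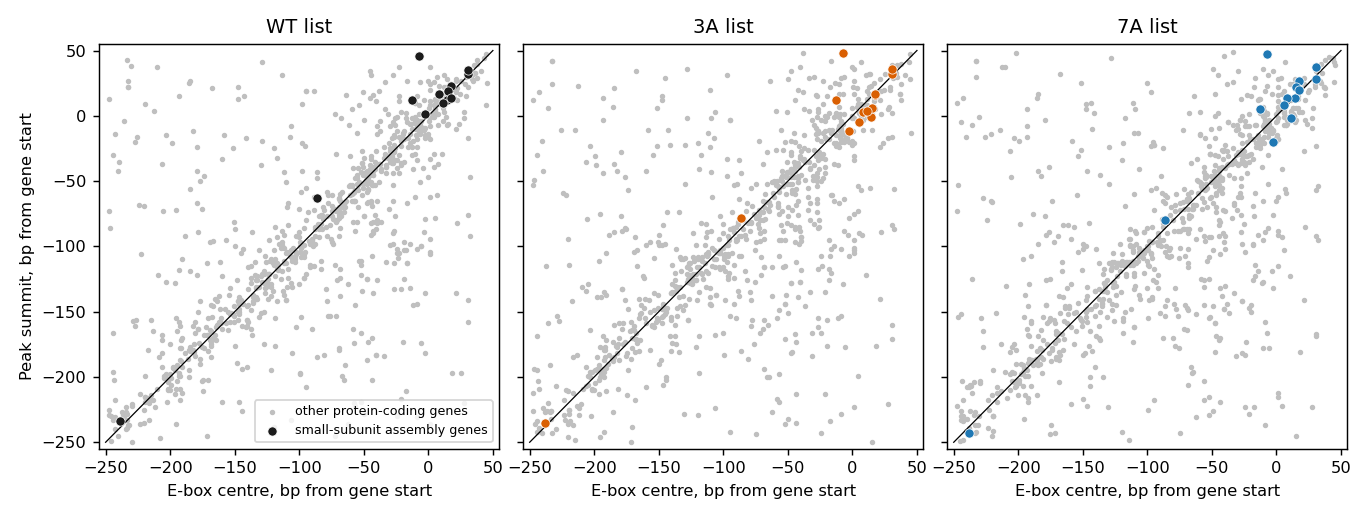
Position of the MAX summit against position of the CACGTG centre, both in bp from the RefSeq start, for small-subunit assembly genes (large points) and other protein-coding genes (grey) whose window holds both, with 1 panel per list. The large points mostly follow the line of equal position, with a median distance of 4.5 bp in WT, 8 bp in 3A and 6.5 bp in 7A, and UTP20 lies farthest off it. Genes whose summit falls outside the window are not drawn.

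The genes without a peak were PWP2 of UtpB, RRP7A of UtpC and WDR46, a processome protein, in all 3 lists (background for no peak in any list 28.5%). WDR46 (chromosome 6, 33279108 to 33289239) lies in a stretch of 5.08 Mb, from 28489539 to 33571357, with no summit in any list. That stretch holds 172 protein-coding genes, more than any other stretch between summits. PWP2 (chromosome 21, 44107399 to 44131181) lies in an empty stretch of 287.5 kb with 6 protein-coding genes. Of the 271 words of 30 bases in its promoter window, 198 also occur at LOC102724159, at chr21:5154609-5154908. RRP7A (chromosome 22, 42508344 to 42519796) lies in an empty stretch of 170.3 kb with 2 protein-coding genes, and none of its 271 words recurs elsewhere in the table. PWP2 has CACGTG from base 2 of the transcript and WDR46 from base 42. What part the copy and the empty stretches have in these absences was not tested.

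A further 26 genes of the same pathway, not among the 49, were described for comparison. Of these, 23 had a peak in each list, with a median rank percent of 14.6 in the WT list, 16.8 in 3A and 21.6 in 7A. The strongest in WT were UTP25 with 60.9 in WT, 47.7 in 3A and 64.2 in 7A, and NOL7 with 57.8, 34.3 and 32.4. Next came DIMT1, the dimethyltransferase of small-subunit rRNA, with 51.7, 27.4 and 39.8. DDX52, AATF and RIOK3 had no peak in any list. The 47 large-subunit assembly genes stood close to the 49, with medians of 7.24, 8.03 and 9.71, and the 32 small-subunit ribosomal protein genes at 4.47, 5.85 and 18.8. Those ribosomal protein genes had few E-boxes. Their median rank percent in WT, over the 29 with a peak there, was the lowest of these whole lists, role groups aside. A smaller share of them stood in the strongest 10% of the WT list, 59.4% against 65.3% of the 49.

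Many of these peaks have another possible owner. The strongest peak lay within 1000 bp of an end of another protein-coding gene at 20 of the 46 genes in each list, or 43.5%, where the background was 23.8% in the WT list, 25.2% in 3A and 25.3% in 7A. Examples are UTP15 with ANKRA2, NOC4L with DDX51, EMG1 with PHB2, DCAF13 with SLC25A32, ESF1 with NDUFAF5, BYSL with MED20, RRP9 with PARP3 and UTP23 with EIF3H. At such shared promoters the lists cannot say which gene the peak serves. Exons and introns are not in the gene table used, so summits are placed only by distance from starts and outer ends.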

How the data were processed

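Peaks come from 3 lists in narrowPeak layout, 1 per MYC form, as deposited and without headers. Per the submitters' processing notes, cutadapt, Bowtie2, SAMtools, Picard and MACS2 were used, with the builds hg19, mm10 and hg38; versions, roles and whether mouse reads scaled the values are not given in the sources used here. Contig names and peak ends matched hg38. The authors' fold enrichment is a linear ratio. Their deposited −log10 q goes down to 5.15 (WT), 5.04 (3A) and 5.69 (7A), and the −log10 p was not used. The deposited score equalled 10 times −log10 q, rounded down, for at least 99.6% of each list. The deposited summit offset, added to the peak start, gave the summit. Columns of other samples numbered 0. No depth and hence no interval or floor can be given.

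Summits were assigned with a flank of 2500 bp to genes of the RefSeq table (GRCh38.p14), which has no exons or strand; all 49 members matched. Ranks use fold enrichment, and a rank ratio of at least 2 was counted as a rule of size. Promoter windows are RefSeq's, and motifs were searched on both strands. The assignment of peaks to genes and the choice of the strongest peak were tested on simulated data, and the motif steps were not. Scripts ran in Python 3.11.15 with NumPy 2.4.6 and pandas 2.3.3, and matplotlib 3.10.9 drew the figures.

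The members and lists were chosen with earlier results of these data known. Named are up to 3 members per role group with the highest WT fold enrichment, those without a peak, the 5 largest rank ratios in each direction against WT, the highest in each list, the 3 lowest in WT, and of the other pathway genes the 3 strongest and those without a peak. Other genes are named as examples, chosen after their values were seen. So were the limit of 10 bp between motif and summit, the first 30 bases, the background of strong WT genes and the UTP11 stretch. Alternatives were other windows, a −log10 q of at least 10, lists of equal length, ranks by −log10 q or among common genes, the peak nearest the start, a 3-fold ratio, a 50% overlap or summits within 100 bp, and the wider motif.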

Additional observations from a re-analysis of the deposited data

How the results depend on the processing

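Presence held at 44 genes per list within 1000 bp of an outer end (SNU13 and BYSL dropped out) and at 46 with a −log10 q of at least 10. Without any flank it held at 28 (WT), 22 (3A) and 23 (7A). No share of all genes is given beside these presence counts, so they cannot be read against a background. The median rank percent by −log10 q came to 4.37 (WT), 6.81 (3A) and 10.7 (7A). With lists of equal length it was 7.37 in the WT list and 9.66 in 3A, and among common genes 15.4, 18.4 and 22.8. For rank ratios, the share of all genes follows each count in parentheses. Genes ranked at least 2-fold higher in WT than in 3A numbered 8 among common genes (13.1%), and 5 passed a 3-fold ratio (12.5%), which is 10.9% of the 46 and below the background. For 3A over WT there were 4 by −log10 q (4.43%) and 4 at 3-fold (5.9%). For WT over 7A there were 13 among common genes (13.1%), 13 with lists of equal length (17.4%) and 13 at 3-fold (14.2%), which is 28.3%, 28.9% and 28.3% of the genes compared. For 3A over 7A there were 3 by −log10 q (5.16%) and 7 at 3-fold (7.6%), and for 7A over 3A 2 (1.89%) and 2 (4.96%). By −log10 q the ratio of PNO1, 3A over WT, became 2.16 and that of NOP14, 7A over 3A, 1.12. The cause of these shifts was not tested, beyond the stricter limit of the 3-fold counts. Of single-gene ratios, 93 kept their side of the limit by −log10 q, while 27 fell back inside it and 16 passed it. A further 2 that had passed it before changed direction, those of PNO1 and NOP14. Changes of direction that began inside the limit were not counted separately. The ratio of WDR43, 3A over WT, is among the 16 and went from 0.733 to 3.06. Among common genes 119 kept their side, 17 fell back and 2 passed. With lists of equal length 120 kept it, 12 fell back and 4 passed. All 138 kept it at the peak nearest the start. Strongest WT peaks overlapped a 3A peak by 50% of both at 45 genes (not UTP18; 84.9% of all genes) and a 7A peak at 45 (not UTP4; 85.2%). WT summits lay within 100 bp of a 3A summit at 42 genes (78.3% of all) and of a 7A summit at 43 (76.3%).

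No paired analysis was possible because each list merges the replicates of a MYC form, and for the same reason leaving out a replicate was not run. Depth is unknown.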
